A study of Homo sapiens with 12 samples.

Results

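The genes described here are the epidermal growth factor receptor gene EGFR and 5 genes for growth factors of the EGF family: TGFA, AREG, EREG, HBEGF and NRG1. They were taken by symbol, and each of the 6 had 1 entry among the 56227 in the table. Levels came from 12 bulk RNA-seq libraries of HT1080, an established human fibrosarcoma line that carries a mutant NRAS gene. The 4 groups of 3 libraries were siQ61K with poly(dA:dT), siNC with poly(dA:dT), siQ61K with DMSO and siNC with DMSO. siQ61K is an siRNA aimed at the Q61K form of NRAS, siNC is the control siRNA, and poly(dA:dT) is a synthetic double-stranded DNA that triggers sensing of DNA in the cytosol. All groups are of 1 cell line, siQ61K is the only siRNA against NRAS, and the titles name no delivery control. The labels do not state whether replicate libraries were separate cultures, and the p-values then cover only library-to-library spread, which could be technical.

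EGFR is a receptor tyrosine kinase on the cell surface that binds growth factors of the EGF family and signals through adaptor proteins to RAS, RAF, MEK and ERK. Its ligands are made as membrane-anchored precursors and are released by metalloproteases, above all ADAM17 and ADAM10. TGFA, HBEGF, AREG and EREG are ligands of EGFR, HBEGF and EREG also bind ERBB4, and NRG1 binds ERBB3 and ERBB4, which signal together with ERBB2. TGFA, HBEGF, AREG and EREG are known in other cells as genes whose transcription rises with RAS and ERK activity.

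Promoter sequences are shown for the 2 ligand genes with the highest levels, TGFA and HBEGF, and for AREG and EREG, which were at or near 0, so that the windows of high and low ligand genes can be read side by side. Each is the 250 bases before the annotated start in RefSeq (GRCh38.p14), 5′ to 3′ on the gene's strand, at chr2:70553827-70554076 (minus strand), chr5:140346604-140346853 (minus strand), chr4:74444886-74445135 (plus strand) and chr4:74364895-74365144 (plus strand). Capitals mark matches on either strand to 5 searched motifs: the AP-1 site TGANTCA, the cyclic AMP response element TGACGTCA, the TATA box TATAAA, the GC box GGGCGG and the ETS site CCGGAAGT.
TGFA: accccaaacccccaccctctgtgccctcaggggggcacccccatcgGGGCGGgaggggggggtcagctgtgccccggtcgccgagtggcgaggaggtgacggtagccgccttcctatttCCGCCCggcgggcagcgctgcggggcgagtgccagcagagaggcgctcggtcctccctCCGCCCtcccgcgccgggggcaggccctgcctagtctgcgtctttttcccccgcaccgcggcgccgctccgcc
HBEGF: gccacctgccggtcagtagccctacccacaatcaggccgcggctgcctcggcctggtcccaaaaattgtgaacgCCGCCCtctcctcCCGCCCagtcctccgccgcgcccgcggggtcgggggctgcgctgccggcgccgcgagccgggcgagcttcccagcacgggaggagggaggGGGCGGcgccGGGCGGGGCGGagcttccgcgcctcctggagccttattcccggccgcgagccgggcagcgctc
AREG: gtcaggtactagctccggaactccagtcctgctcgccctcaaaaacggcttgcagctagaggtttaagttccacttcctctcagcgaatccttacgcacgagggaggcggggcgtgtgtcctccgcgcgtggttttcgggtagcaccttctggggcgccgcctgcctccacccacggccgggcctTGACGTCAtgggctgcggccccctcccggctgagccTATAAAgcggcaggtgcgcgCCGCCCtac
EREG: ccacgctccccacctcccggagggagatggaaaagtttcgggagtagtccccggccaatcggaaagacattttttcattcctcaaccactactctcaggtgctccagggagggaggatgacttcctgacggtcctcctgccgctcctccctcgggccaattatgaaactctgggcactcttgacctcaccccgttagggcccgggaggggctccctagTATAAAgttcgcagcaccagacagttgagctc

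The TGFA window held 3 GC boxes and the HBEGF window 5, some of them overlapping, and neither held a TATA box. The AREG window held 1 TATA box, 1 cyclic AMP response element and 1 GC box, and the EREG window held 1 TATA box. Of 35116 windows of this length over all genes, 42.6% held a GC box, 10.7% a TATA box and 1.65% a cyclic AMP response element. G and C made up 75.6% of the TGFA window, 76.4% of the HBEGF window, 65.2% of the AREG window and 58% of the EREG window, and the median of all windows was 58%. None of these 4 windows held the AP-1 letters, found in 6.57% of all windows, or the ETS letters, found in 3.42%. TGFA has 2 annotated starts and the first listed is shown; the window of the other held none of the 5 motifs. Of the 2 windows of EGFR, 1 held 2 GC boxes and the other 2 AP-1 matches and 2 TATA boxes. A match is a run of letters in a short window and shows no binding.

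Levels are given as TPM, a relative transcript abundance scaled for transcript length, so levels of different genes can be set side by side. Since TPM does not carry read numbers, library depth is unknown. Differences are on the scale of log2(TPM + 1), which understates the change of low genes, and were tested with limma over 14722 genes that had at least 1 TPM in at least 3 libraries. Of the 6 genes, 5 passed that filter and EREG did not. A gene is called where the Benjamini-Hochberg adjusted p over all tested genes is under 0.05. In bulk RNA, fewer cells with a transcript and less of it per cell cannot be told apart.

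NRAS, the targeted gene, stood at 15.5, 15.2 and 19.9 TPM in siQ61K DMSO libraries, against 59.6, 60.6 and 41.4 TPM in siNC DMSO libraries. Its levels with the synthetic DNA were 20.1, 20.3 and 23.5 TPM in siQ61K libraries, against 43.0, 45.9 and 51.7 TPM in siNC libraries. Every siQ61K library was thus below every siNC library, although TPM of the gene does not separate the mutant from the normal allele. Replicate libraries correlated across genes at 0.966 to 0.984. The libraries farthest apart within a group, on the component that took 21.1% of the variance left within groups, were siQ61K poly(dA:dT) replicates 1 and 2 (scores 34.9 and -27.9). All 7 mesenchymal markers averaged at least 1 TPM in each group, with summed levels from 5249 to 8403 TPM over the libraries. Most of that sum was VIM, at 4728 to 7743 TPM. Of 6 epithelial markers, 3 averaged at least 1 TPM in each group, and no leukocyte or endothelial marker found in the table did. The epithelial markers summed to 488 to 781 TPM, mostly KRT8 (331 to 571 TPM) and KRT18 (156 to 216 TPM).

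**Figure D1:**
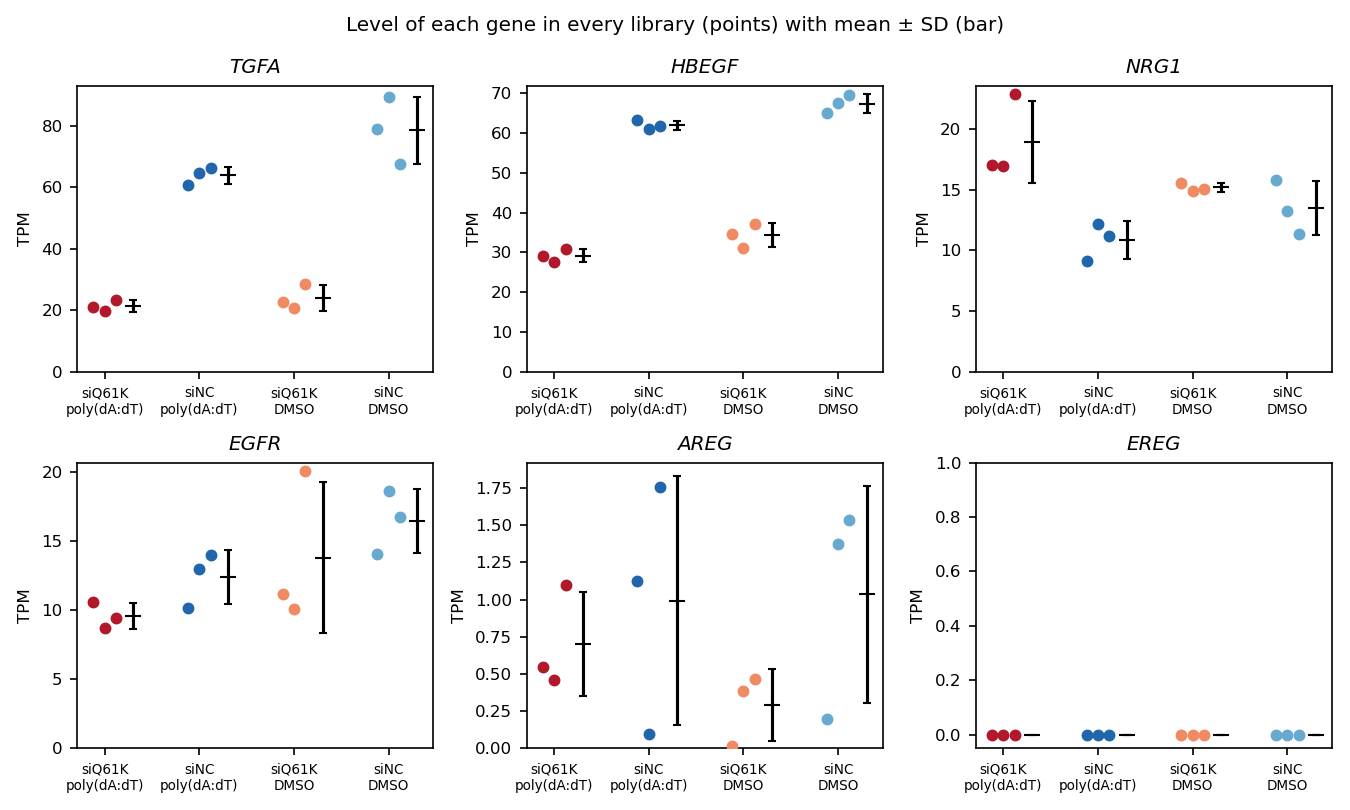
Level in TPM (vertical axis, separate for each gene) of TGFA, HBEGF, NRG1, EGFR, AREG and EREG in each of the 12 libraries by group (horizontal axis). Points are libraries and bars are the mean ± SD of 3 libraries. TGFA and HBEGF are lower in all siQ61K libraries than in all siNC libraries, and EREG is listed at 0 throughout.

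TGFA encodes transforming growth factor alpha, a high-affinity EGFR ligand. Without poly(dA:dT) it stood at 22.6, 20.7 and 28.7 TPM in siQ61K libraries, against 79.0, 89.2 and 67.4 TPM in siNC libraries. In the presence of poly(dA:dT) TGFA stood at 21.0, 19.7 and 23.4 TPM in siQ61K libraries, against 60.9, 64.6 and 66.3 TPM in siNC libraries. The groups did not overlap in either setting. The mean in siQ61K libraries was 30.6% of that in siNC libraries without poly(dA:dT) and 33.4% with it. The log2 difference was -1.67 without poly(dA:dT) (limma, SE 0.14, adjusted p = 7.18e-06) and -1.54 with it (limma, SE 0.14, adjusted p = 9.24e-06). Of the 14722 genes tested, 54 had a lower log2 difference than TGFA without poly(dA:dT) and 99 had a lower one with it.

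HBEGF encodes heparin-binding EGF-like growth factor, whose membrane form is also the receptor for diphtheria toxin. It stood at 34.7, 31.2 and 37.2 TPM in siQ61K DMSO libraries, against 64.9, 67.7 and 69.5 TPM in siNC DMSO libraries. Among poly(dA:dT) libraries HBEGF stood at 28.98, 27.6 and 30.9 TPM in siQ61K libraries, against 63.2, 60.9 and 61.7 TPM in siNC libraries. Again no siQ61K library reached the level of any siNC library. The log2 difference was -0.95 without poly(dA:dT) (limma, SE 0.10, adjusted p = 3.96e-05) and -1.06 with it (limma, SE 0.10, adjusted p = 1.35e-05). The mean in siQ61K libraries was 51.0% of that in siNC libraries without poly(dA:dT) and 47.1% with it.

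The balance of the pair can be read within each library as the ratio of TGFA to HBEGF TPM. That ratio was 0.652, 0.665 and 0.770 in siQ61K DMSO libraries, against 1.22, 1.32 and 0.970 in siNC DMSO libraries. Under poly(dA:dT) it was 0.726, 0.713 and 0.758 in siQ61K libraries, against 0.964, 1.06 and 1.07 in siNC libraries. The groups did not overlap in either setting, and p was 0.1 in each by an exact two-sided permutation test, which cannot go lower for 3 libraries against 3. HBEGF was the higher of the pair in all siQ61K libraries, and TGFA was the higher in 4 of the 6 siNC libraries.

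**Figure D2:**
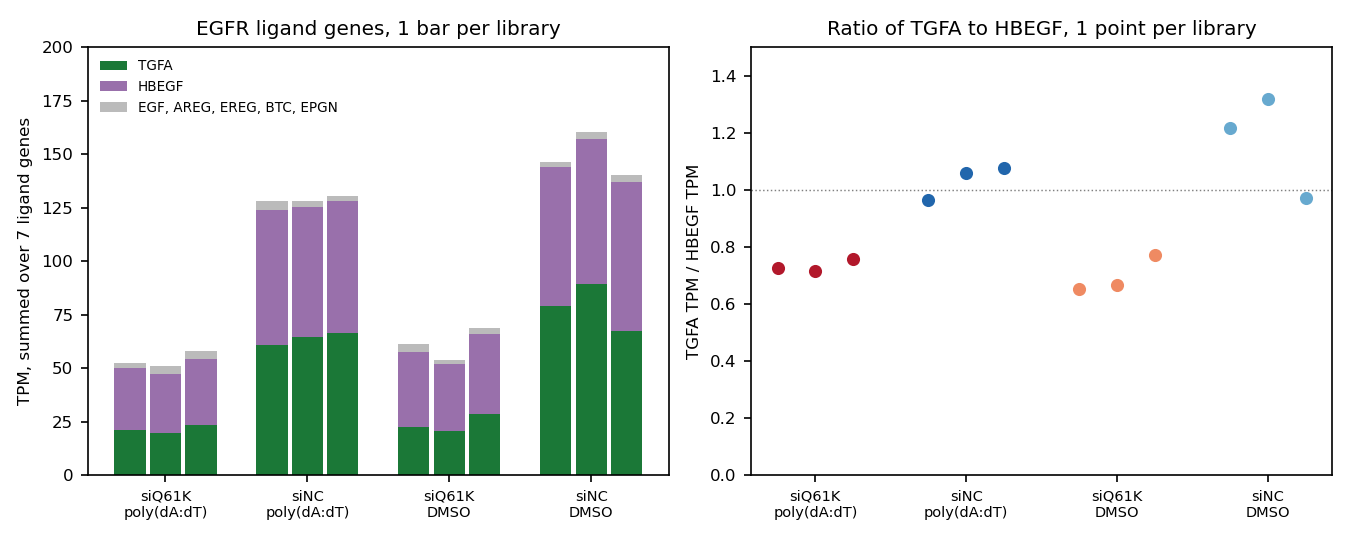
Left, TPM summed over 7 EGFR ligand genes, with 1 bar per library split into TGFA, HBEGF and the other 5. Right, ratio of TGFA to HBEGF TPM in each library (points), with a dotted line at 1. Sums are 50.8 to 68.9 TPM in siQ61K libraries and 128 to 160 TPM in siNC libraries.

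TGFA and HBEGF made up nearly the whole pool of mRNA for ligands of EGFR. Summed over TGFA, HBEGF, EGF, AREG, EREG, BTC and EPGN, the level averaged 61.3 ± 7.57 TPM in siQ61K DMSO libraries and 149 ± 10.2 TPM in siNC DMSO libraries (SD, n = 3 each). Under poly(dA:dT) the sum averaged 53.7 ± 3.91 TPM in siQ61K libraries and 129 ± 1.40 TPM in siNC libraries (SD, n = 3 each). The share of TGFA and HBEGF together was 92.9% to 96.6% over the siQ61K libraries and 97.1% to 98.5% over the siNC libraries. No test is given for this sum, since its 2 main genes were known to be lower.

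AREG encodes amphiregulin and EREG encodes epiregulin, EGFR ligands of lower affinity that many RAS-mutant carcinomas express. In HT1080 cells AREG stood at 0.0128, 0.388 and 0.464 TPM in siQ61K DMSO libraries, against 0.199, 1.37 and 1.54 TPM in siNC DMSO libraries. Among poly(dA:dT) libraries AREG stood at 0.548, 0.456 and 1.10 TPM in siQ61K libraries, against 1.12, 0.0958 and 1.76 TPM in siNC libraries. These groups overlapped, and AREG was not called by limma without poly(dA:dT) (log2 difference -0.60, 95% interval -1.42 to 0.22, adjusted p = 0.249) or with it (-0.15, interval -0.96 to 0.67, adjusted p = 0.821). AREG had 1 TPM or more in only 5 libraries, most of them siNC. It therefore entered the test mainly through the groups where its mean was higher, and its differences are given as a description. EREG was listed at 0 in all 12 libraries. In the RefSeq annotation EPGN, EREG, AREG and BTC follow one another with no other protein-coding gene between their starts. EPGN, the gene for epigen, was listed at 0 in 11 libraries and was at 0.239 TPM in the other one, and BTC, the gene for betacellulin, stayed at or under 0.455 TPM. Read by symbol, all 4 ligand genes of that cluster were therefore at 1.76 TPM or less in every library. TGFA and HBEGF, which lie on other chromosomes, were at 19.7 TPM or more. Entries under other symbols were not searched for these genes, and the annotation behind the levels is not given.

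NRG1 encodes neuregulin 1, a ligand of ERBB3 and ERBB4, and did not follow TGFA and HBEGF. With poly(dA:dT) it stood at 17.0, 16.9 and 22.8 TPM in siQ61K libraries, against 9.14, 12.2 and 11.2 TPM in siNC libraries. All siQ61K libraries were higher, with a log2 difference of 0.75 (SE 0.16, limma adjusted p = 0.00597). Without poly(dA:dT) it stood at 15.6, 14.9 and 15.1 TPM in siQ61K libraries, against 15.8, 13.2 and 11.4 TPM in siNC libraries. Those groups overlapped, and the log2 difference of 0.17 (95% interval -0.18 to 0.52, limma adjusted p = 0.453) was not called. The ratio of NRG1 to TGFA TPM was 0.809 to 0.976 in siQ61K poly(dA:dT) libraries and 0.150 to 0.189 in siNC poly(dA:dT) libraries. It was 0.526 to 0.718 in siQ61K DMSO libraries and 0.149 to 0.200 in siNC DMSO libraries. Of the receptors that bind NRG1 directly, ERBB3 stayed at or under 2.11 TPM and ERBB4 at or under 0.0283 TPM in every library.

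EGFR stood at 11.2, 10.1 and 20.1 TPM in siQ61K DMSO libraries, against 14.0, 18.6 and 16.8 TPM in siNC DMSO libraries. Replicate 3 of siQ61K was the highest of these 6 libraries, whereas replicates 1 and 2 were below all siNC libraries. The log2 difference was -0.29 (95% interval -0.77 to 0.18, limma adjusted p = 0.34) and was not called, but without siQ61K DMSO replicate 3 it was -0.58 and was called (limma adjusted p = 0.0262). With poly(dA:dT), EGFR stood at 10.6, 8.68 and 9.41 TPM in siQ61K libraries, against 10.2, 13.0 and 14.0 TPM in siNC libraries. The log2 difference was -0.34 (95% interval -0.81 to 0.14, limma adjusted p = 0.303). EGFR TPM was lower than that of TGFA and of HBEGF in every library, and the summed EGFR ligands stood at 3.43 to 6.18 times EGFR in siQ61K libraries and 8.36 to 12.6 times EGFR in siNC libraries.

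**Figure D3:**
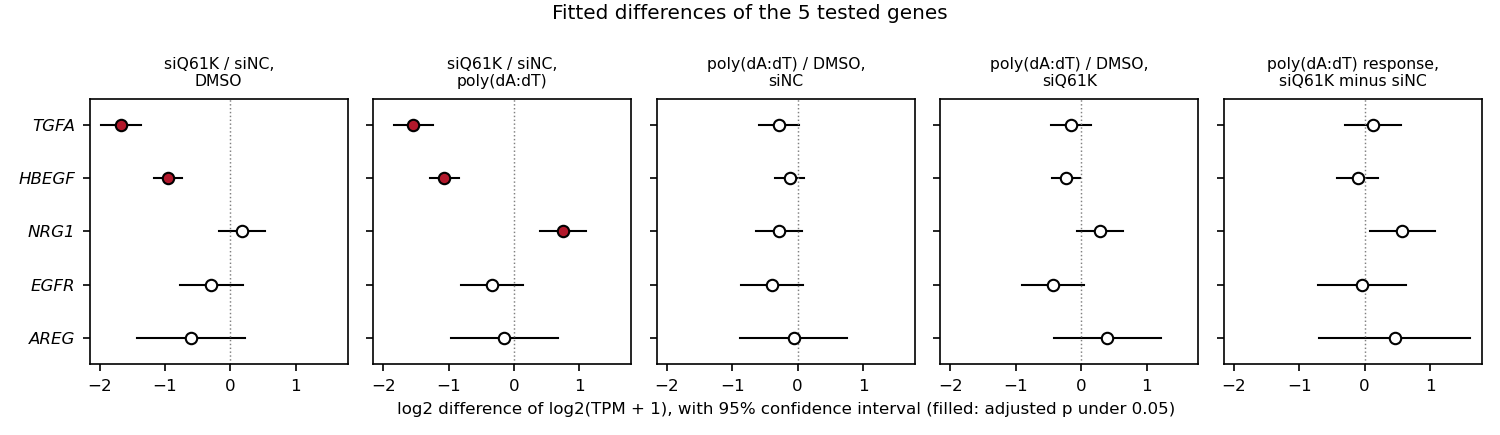
Fitted log2 difference (horizontal axis) of TGFA, HBEGF, NRG1, EGFR and AREG in 5 comparisons (panels), with 95% confidence intervals as lines. Filled points have an adjusted p under 0.05: TGFA and HBEGF in both knockdown comparisons and NRG1 in the one with poly(dA:dT).

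Counted over the 5 tested genes, 2 fell and none rose by knockdown without poly(dA:dT), where 31.5% of all tested genes were called, 16.6% as higher and 14.8% as lower. In the same comparison 2 of the 5 had no overlap between groups, both lower, against 45.8% of all tested genes, 25.4% higher and 20.4% lower. By knockdown with poly(dA:dT) 2 fell and 1 rose, where 21.4% of all tested genes were called, 8.71% as higher and 12.6% as lower. There 3 of the 5 had no overlap, 2 lower and 1 higher, against 36.7% of all tested genes, 15.6% higher and 21% lower. No test was made of these counts, and 5 genes are few to read against such a background. The median log2 difference of the 5 genes was -0.60 without poly(dA:dT), against 0.01 over all tested genes, and -0.34 with it, against -0.07. With 5 genes each median is the value of 1 gene, AREG without poly(dA:dT) and EGFR with it. Neither of these values was called, and AREG was at 1.76 TPM or less in every library.

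Differences between siQ61K and siNC followed GC content across genes, with a Spearman correlation of 0.505 without poly(dA:dT) and -0.245 with it. The longest transcripts of TGFA and HBEGF have 45.9% and 50.9% GC. With each library corrected for GC content and transcript length, the log2 differences without poly(dA:dT) were -1.61 for TGFA and -1.03 for HBEGF, and both were still called.

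The comparison of poly(dA:dT) with DMSO addresses what the synthetic DNA did to these genes under each siRNA. IFIT1, an interferon-stimulated gene, averaged 505.8 ± 57.0 TPM with poly(dA:dT) and 20.2 ± 0.784 TPM with DMSO under siQ61K (SD, n = 3 each). Under siNC it averaged 41.0 ± 8.73 TPM with poly(dA:dT) and 6.51 ± 0.591 TPM with DMSO (SD, n = 3 each). None of the 5 genes was called by limma under siNC, where 0.122% of all tested genes were called, 0.0747% as higher and 0.0475% as lower. None was called under siQ61K either, where 25.2% were called, 6.92% as higher and 18.3% as lower. At an unadjusted p under 0.05 there was none under siNC and 1, HBEGF, under siQ61K.

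Under siNC, TGFA, HBEGF and EGFR were lower in every poly(dA:dT) library than in every DMSO library, although none was called. Groups without overlap were found for 17.9% of all tested genes there, 7.89% higher and 10% lower. The gaps were narrow. For EGFR the highest poly(dA:dT) library was at 13.96 TPM and the lowest DMSO library at 14.04 TPM. The highest poly(dA:dT) library and the lowest DMSO library, not the same for each gene, were at 66.3 and 67.4 TPM for TGFA. For HBEGF they were at 63.2 and 64.9 TPM. Under siQ61K, HBEGF was lower and NRG1 higher in every poly(dA:dT) library than in every DMSO library, against 39.3% of all tested genes without overlap, 11.7% higher and 27.6% lower. There the highest poly(dA:dT) library for HBEGF was at 30.9 TPM and the lowest DMSO library at 31.2 TPM. For NRG1 the lowest poly(dA:dT) library was at 16.9 TPM and the highest DMSO library at 15.6 TPM.

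The log2 difference of TGFA was -0.29 under siNC (limma, 95% interval -0.59 to 0.02, adjusted p = 0.453) and -0.15 under siQ61K (interval -0.45 to 0.15, adjusted p = 0.458). That of HBEGF was -0.12 under siNC (limma, interval -0.34 to 0.10, adjusted p = 0.639) and -0.23 under siQ61K (interval -0.45 to -0.01, adjusted p = 0.114). The median over all tested genes under siQ61K was -0.15, and median-of-ratios scaling brought it to 0.00; relative to that median the TGFA value under siQ61K is close to 0.

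NRG1 had a log2 difference of -0.29 (95% interval -0.64 to 0.06) under siNC and 0.29 (interval -0.07 to 0.64) under siQ61K, neither of them called by limma (adjusted p = 0.502 and 0.219). The difference between these responses was 0.58 (SE 0.23, limma adjusted p = 0.0997) and was not called. For EGFR the responses were -0.39 (interval -0.86 to 0.09) under siNC and -0.43 (interval -0.91 to 0.05) under siQ61K. None of the 5 genes was called by limma for a difference between responses, where 18.1% of all tested genes were called, and NRG1 was the 1 gene with an unadjusted p under 0.05.

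**Figure D4:**
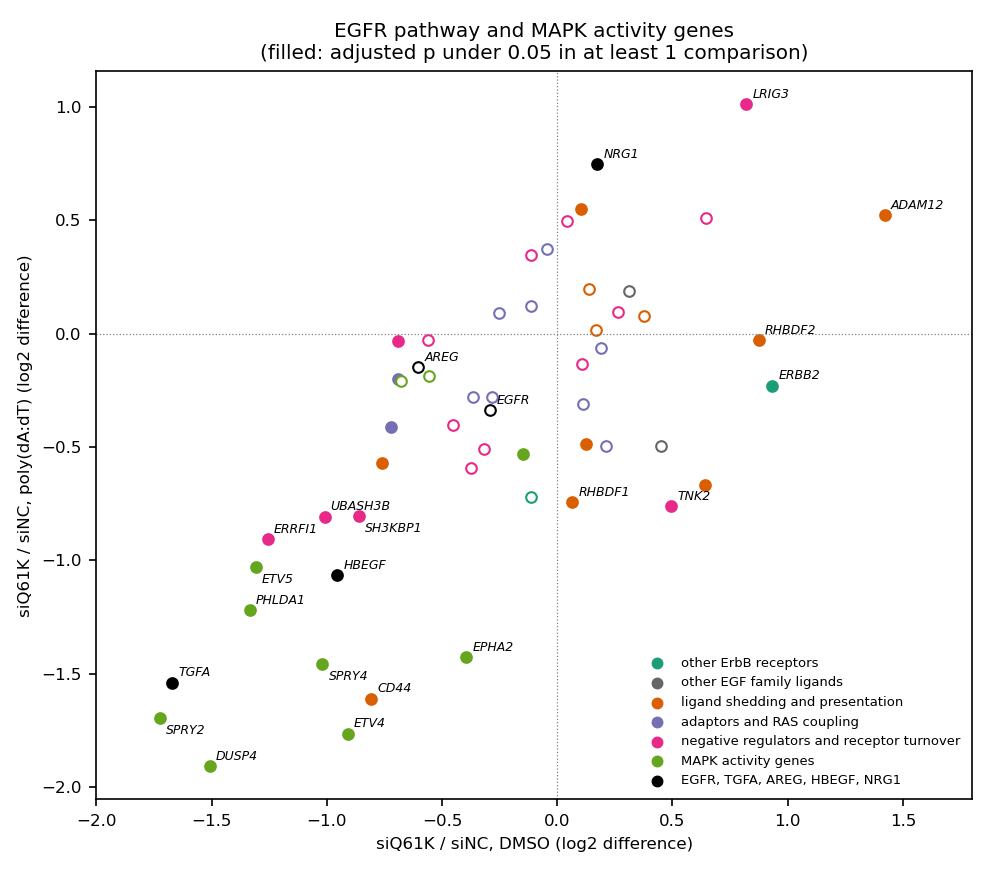
Log2 difference between siQ61K and siNC without poly(dA:dT) (horizontal axis) and with it (vertical axis) for EGFR, TGFA, AREG, HBEGF, NRG1, 40 tested genes of the EGFR pathway and 10 MAPK activity genes, coloured by list. Filled points were called in at least 1 of these comparisons. TGFA and HBEGF lie at the lower left, with several but not all MAPK activity genes and with pathway genes such as ERRFI1 and CD44. NRG1 lies above 0 on the vertical axis.

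Among the other genes of the pathway, 40 of 45 listed genes were tested. Of these, 5 rose and 8 fell by knockdown without poly(dA:dT), where 16.6% of all tested genes were called higher and 14.8% lower. By knockdown with poly(dA:dT) 2 rose and 9 fell, where 8.71% of all tested genes were called higher and 12.6% lower. The 13 and 11 of 40 called lie near the 31.5% and 21.4% over all tested genes and are no result about the pathway. Their median log2 difference was 0.05 and -0.22, against 0.01 and -0.07 over all tested genes. Of the other ErbB receptors, ERBB2, the co-receptor without a ligand of its own, rose without poly(dA:dT), to 31.7 ± 4.43 TPM in siQ61K libraries, against 16.5 ± 4.83 TPM in siNC libraries (SD, n = 3 each; log2 difference 0.93, limma adjusted p = 0.0043). With poly(dA:dT) ERBB2 was at 15.3 ± 3.25 TPM in siQ61K libraries and 17.9 ± 1.59 TPM in siNC libraries (SD, n = 3 each; limma adjusted p = 0.455). After the GC and length correction the ERBB2 difference without poly(dA:dT) was 0.58 and was still called (limma adjusted p = 0.0168). The other tested EGF family ligands, EGF and NRG2, were not called by knockdown in either setting.

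Of 11 genes for ligand shedding and presentation, 3 rose and 2 fell without poly(dA:dT), where 16.6% of all tested genes were called higher and 14.8% lower. With it 1 rose and 5 fell, where 8.71% were called higher and 12.6% lower. The 1 that rose with poly(dA:dT), ADAM9 (0.55, limma adjusted p = 0.029), lost its call in 5 of 23 alternatives. ADAM19, among the 5 that fell (-0.49, limma adjusted p = 0.0404), lost its call in 11 of 23. The sheddases ADAM17 (log2 difference 0.14) and ADAM10 (0.17) were not called without poly(dA:dT), nor with it (0.20 and 0.02). After the GC and length correction both were called higher without poly(dA:dT), ADAM17 at 0.42 (limma adjusted p = 0.0097) and ADAM10 at 0.43 (limma adjusted p = 0.0476). CD44, a surface glycoprotein whose heparan sulfate forms can hold HBEGF, fell without poly(dA:dT) (log2 difference -0.81, limma adjusted p = 0.00693) and with it (-1.61, limma adjusted p = 8.32e-05). CD9, a tetraspanin that associates with the HBEGF precursor, fell as well without poly(dA:dT) (-0.76, limma adjusted p = 0.00607). Its call with poly(dA:dT) (-0.57, limma adjusted p = 0.0357) was lost in 9 of 23 alternatives, among them leaving out siQ61K poly(dA:dT) replicate 2 (0.146) or siNC poly(dA:dT) replicate 1 (0.126). RHBDF2, which encodes a cofactor of ADAM17 maturation, rose without poly(dA:dT) (0.87, limma adjusted p = 0.0071), a call that was lost after the GC and length correction (0.38, limma adjusted p = 0.117). ADAM12, another metalloprotease gene, stood at 0.970, 1.44 and 6.20 TPM in siQ61K DMSO libraries, against 0.160, 0.270 and 0.223 TPM in siNC DMSO libraries. ADAM12 is among the 3 counted as risen, but it had 1 TPM or more in only 3 libraries, all siQ61K, so it entered the test through the libraries where it is high and its values are given as a description. RHBDF1, a relative of RHBDF2, fell with poly(dA:dT) (-0.74, limma adjusted p = 0.00149), and without it RHBDF1 was called lower only after the GC and length correction (-0.42, limma adjusted p = 0.0148). ADAM15, also a metalloprotease gene, was called higher without poly(dA:dT) (0.64, limma adjusted p = 0.0113), but not after that correction (0.12, adjusted p = 0.476) or without siNC DMSO replicate 1 (0.054). With poly(dA:dT) ADAM15 was called lower (-0.67, limma adjusted p = 0.0127), but not without siQ61K poly(dA:dT) replicate 2 (0.0571), siQ61K poly(dA:dT) replicate 3 (0.0557) or siNC poly(dA:dT) replicate 1 (0.0539).

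Of 15 negative regulators and turnover genes, 1 rose and 4 fell in each setting. Over all tested genes 16.6% were called higher and 14.8% lower without poly(dA:dT), and 8.71% and 12.6% with it. ERRFI1, the gene for the EGFR inhibitor MIG6, fell to 161.9 ± 21.2 TPM in siQ61K DMSO libraries, against 387 ± 40.8 TPM in siNC DMSO libraries (SD, n = 3 each; log2 difference -1.26, limma adjusted p = 1.85e-05). Under poly(dA:dT) its log2 difference was -0.91 (limma adjusted p = 0.00018). UBASH3B (-1.01 without poly(dA:dT) and -0.81 with it) and SH3KBP1 (-0.86 and -0.80), which act in receptor turnover, fell too. LRIG3, a transmembrane protein of the LRIG family, rose (0.82 without poly(dA:dT) and 1.01 with it). These genes were called by limma in both settings. The other gene that fell was SOCS5 without poly(dA:dT) (-0.69, limma adjusted p = 0.00536) and TNK2 with it (-0.76, limma adjusted p = 0.0264). With poly(dA:dT) SOCS5 was not called (-0.03), and TNK2 lost its call in 7 of 23 alternatives. PTPRJ, not called with poly(dA:dT) (-0.59, limma adjusted p = 0.0529), was called in 8 of 23, and SOCS4 and EPS15 in 3 of 23 each. Of 10 adaptor and RAS coupling genes, 2 fell without poly(dA:dT), EPS8 (-0.72) and SOS2 (-0.69), and none was called with it. Correcting for GC content and length made EPS8 (-0.42, limma adjusted p = 0.00686) and PTPN11 (-0.27, limma adjusted p = 0.042) calls with poly(dA:dT). SHC1 was called there without siQ61K poly(dA:dT) replicate 1 (limma adjusted p = 0.0441). SOS2 was not called without siQ61K DMSO replicate 2 (limma adjusted p = 0.0563) or without siNC DMSO replicate 2 (limma adjusted p = 0.0595). SOS1 (-0.12 and 0.12) was not called in either setting. GRB2 (0.21 and -0.49) was not called either, but with poly(dA:dT), where its limma adjusted p was 0.0635, it was called in 4 of 23 alternatives, with adjusted p of 0.0246 without siQ61K DMSO replicate 3 and 0.0355 with a replicate block.

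The MAPK activity genes, a list of genes known to respond to ERK signalling, numbered 10. The list was chosen with earlier results of these data known. Of its genes, 6 fell and none rose by knockdown without poly(dA:dT), where 16.6% of all tested genes were called higher and 14.8% lower. The median log2 difference of the list was -0.96, against 0.01 over all tested genes. By knockdown with poly(dA:dT) 8 fell and none rose, where 8.71% of all tested genes were called higher and 12.6% lower. The median of the list there was -1.32, against -0.07. CCND1, among the 8 that fell (-0.53, limma adjusted p = 0.0338), lost its call in 8 of 23 alternatives. Without poly(dA:dT), EPHA2 was not called (-0.39, limma adjusted p = 0.0923), but it was called in 6 of 23 alternatives. SPRY2, a feedback inhibitor of the pathway, had differences of -1.72 and -1.69, and the phosphatase gene DUSP4 had -1.51 and -1.91, all called by limma. PHLDA1 fell by 1.34 on the log2 scale without poly(dA:dT), and ETV4, an ETS transcription factor gene, fell by 1.76 with it. DUSP6 was at or under 1.33 TPM in all libraries and was not called (-0.55 and -0.19, limma adjusted p = 0.162 and 0.685). It had 1 TPM or more in only 3 libraries, all siNC, so it entered the test through libraries where it is higher.

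For poly(dA:dT) against DMSO, none of the 40 tested pathway genes was called under siNC, and 10 fell and none rose under siQ61K. The 10 of 40 are about the same share as the 25.2% of all tested genes called there and are no result about the pathway. Their median log2 difference was -0.22 under siNC and -0.24 under siQ61K, against -0.07 and -0.15 over all tested genes. The genes that fell under siQ61K comprised 5 of ligand shedding and presentation, 2 adaptors, ERBB2, TNK2, a kinase gene of receptor turnover, and NRG2. TNK2 had a log2 difference of -1.10 (limma adjusted p = 0.00608) and ERBB2 of -1.02 (limma adjusted p = 0.00606). With replicate 3 of siQ61K DMSO and replicate 2 of siQ61K with poly(dA:dT) both left out, 0 pathway genes were called. That pair was chosen with earlier results known and scored 12.9 and -27.9 on the component of within-group variance. Replicate 1 of siQ61K with poly(dA:dT) lay farther out (34.9), and leaving it out raised the count over all genes from 3712 to 4622. Correcting for GC content and length left 1 pathway gene called. Log2 differences of this comparison had a Spearman correlation of -0.572 with GC content across genes, whose part in these calls was not tested beyond that correction.

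Likeness to other genes was measured over the 12 libraries as the root-mean-square difference between log2(TPM + 1) values, each centred on the gene's own mean, among 10094 other genes with a mean of at least 5 TPM. The genes closest to TGFA were DLGAP5, a mitotic spindle gene (0.141), ITGB1, the integrin beta 1 gene (0.141), and HJURP, a centromere chaperone gene (0.143). Closest to HBEGF were SLC2A3, a glucose transporter gene (0.0970), PLP2 (0.1002) and KIF4A, a mitotic kinesin gene (0.106). Closest to NRG1 were DIPK1A (0.0773), ANXA1, the annexin A1 gene (0.106), and IFT88, a ciliary transport gene (0.112). Closest to EGFR were MED13L, a Mediator subunit gene (0.0844), BBX (0.0971) and TAOK1, a protein kinase gene (0.0978). The libraries fall into 4 groups, so a small difference mostly means a like pattern over groups.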

How the data were processed

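Whole-transcriptome RNA-seq was done on HT1080 cells with a NEBNext library kit and an Illumina Novaseq, per the labels' protocols. The authors deposited TPM per gene symbol for 12 libraries. The submitters' processing notes name Salmon 0.8.0 and hg19; no source used here gives the annotation or how transcripts were summed to genes. The table's short column names were matched to sample titles by inference: SI was read as siQ61K and PD as poly(dA:dT). Entries sharing a symbol (984) were left out.

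From these values log2(TPM + 1) was computed, and a model of 4 group means was fitted in limma 3.58.1 under R 4.3.3, using a variance trend, to 14722 genes (1 TPM or more in 3 or more libraries). Adjustment was by Benjamini-Hochberg, with a threshold of 0.05. Intervals are 95% limma intervals. The fit was tested on simulated data. The members, gene lists, tests and alternatives were chosen with earlier results of these data known. Genes named were the 6 members, NRAS, a fixed set of pathway genes, up to 3 called genes per list and comparison with the largest difference, and the 3 genes most like each member with a mean of at least 5 TPM. Markers of cell types came from lists of 7 mesenchymal, 6 epithelial, 5 leukocyte and 4 endothelial genes, of which PECAM1 was not analysed here. Alternatives covered pseudocount, filter, scaling, variance trend, groups fitted, a replicate block, libraries left out, and a lowess correction (span 0.3) on GC and size of each gene's longest GENCODE transcript, known for 97.13% of tested genes. Promoter windows were found for 5 of the 6 genes.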

Additional observations from a re-analysis of the deposited data

Results flagged for a closer look

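For none of the 5 tested genes of the EGF family and EGFR did the response to poly(dA:dT) differ between siRNAs at an adjusted p under 0.05. Among the listed pathway and MAPK activity genes, 6 had a response to poly(dA:dT) that differed by limma's interaction test, all lower under siQ61K than under siNC. Of the pathway list 40 genes were tested and of the MAPK activity list 10, so these 6 are a share no higher than over all tested genes, of which 18.1% were called, 12.1% as lower. The differences were -1.31 for ADAM15 (adjusted p = 0.00829), -1.25 for TNK2 (adjusted p = 0.0196), -1.16 for ERBB2 (adjusted p = 0.0195), -1.03 for EPHA2 (adjusted p = 0.0158), -0.85 for ETV4 (adjusted p = 0.0191) and -0.81 for RHBDF1 (adjusted p = 0.0146). After the GC and length correction none of these 6 was called, with adjusted p from 0.132 for ADAM15 to 0.853 for RHBDF1. Fold differences of this comparison followed GC content across genes (Spearman -0.656), and the part of GC content in these 6 results was not tested further.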

How the results depend on the processing

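The calls of TGFA and HBEGF by knockdown, and that of NRG1 with poly(dA:dT), held in each of the 23 alternatives. Their ranges were -1.80 to -1.53 and -1.60 to -1.39 for TGFA without and with poly(dA:dT), -1.03 to -0.88 and -1.10 to -0.95 for HBEGF, and 0.59 to 0.83 for NRG1 with it.

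Counts of the other pathway genes were less stable. With poly(dA:dT), 11 were called by knockdown, against 7 with no filter, 7 when replicate 3 of siQ61K DMSO and replicate 2 of siQ61K with poly(dA:dT) were both left out, 15 with median-of-ratios scaling, 16 after the GC and length correction and 6 to 13 with single libraries left out. Without poly(dA:dT) the correction gave 18, against 13. For poly(dA:dT) under siQ61K 10 were called, against 6 with no filter, 5 with only the groups compared, 0 without both libraries, 1 after the GC and length correction and 4 to 11 with single libraries left out. For the difference between responses 4 were called, against 2 with no filter, 9 with a mean of at least 5 TPM, 10 with median-of-ratios scaling, 1 without both libraries, 1 after the correction and 2 to 9 with single libraries left out. The cause was not tested. The fit of only the groups compared cannot give the difference between responses.

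Among the tested genes of the EGF family and EGFR, sign changes were seen only in uncalled values. AREG for poly(dA:dT) under siNC (-0.06) was 0.0078 with quantile normalization, 0.0284 after the correction and -0.40 to 0.32 with single libraries left out, and AREG by knockdown with poly(dA:dT) (-0.15) ranged from -0.53 to 0.14. TGFA for poly(dA:dT) under siQ61K (-0.15) was 0.0122 with median-of-ratios scaling and 0.0339 without both libraries. For the difference between responses EGFR (-0.04) was 0.0484 with median-of-ratios scaling, 0.0409 with quantile normalization, 0.30 without both libraries, 0.11 after the correction and -0.22 to 0.24 with single libraries left out, and HBEGF (-0.11) was 0.0252 with quantile normalization and 0.0361 after the correction.

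Counts over all genes ranged from 3040 to 5003 around 4632 by knockdown without poly(dA:dT), 7 to 36 around 18 for poly(dA:dT) under siNC, 144 to 4622 around 3712 under siQ61K and 297 to 3877 around 2662 for the difference between responses. Leaving out both named libraries gave 144 and 494 for the last 2 of these, and the GC and length correction 1250 and 297. Same-numbered libraries did not deviate together (correlation over 0.1 in 3 of 18 pairs), and with a replicate block 2 genes of the family were called without poly(dA:dT) and 3 with it. The depth of the libraries is unknown, which leaves the precision of AREG undetermined.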
